A study of Mus musculus with 16 samples.

Results

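Cells sorted as medullary thymic epithelial cells (mTEC) were compared between the Aire lineage and unlabelled cells, both with low surface MHC class II. The 2 populations, RFP+ MHCIIlo and RFP- MHCIIlo, are called RFP+ cells and RFP- cells from here on. By the labels they hold 8 of the study's 16 libraries, 4 a side, and the genes described are the 19617 of 43432 listed that passed a filter on low counts. Both populations came from C57BL6.Aire-CreERT2.Ai14 mice of mixed sex, aged 5 to 6 weeks, that had been given 2 mg tamoxifen 7 days earlier. In these mice tamoxifen activates a Cre recombinase that is made where Aire is expressed, and Cre switches on the red fluorescent protein (RFP) of the Ai14 reporter permanently. Cells were sorted as DAPI-, CD45- and EPCAM+ with low MHC class II, and the gates differed only in RFP. Each gate can also hold other cells, and markers of these are given below. RFP therefore marks cells that expressed Aire around the time of the pulse and their progeny, while an RFP- cell may have expressed Aire before or after it. Each replicate pooled 12 thymi, so the spread given is between pools and not between animals. The other 8 libraries hold the MHCIIhi cells of both RFP classes and were used for the estimate of the spread and for reference levels.

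The thymic medulla shows developing T cells proteins that otherwise belong to single peripheral tissues, and Aire is the transcriptional regulator behind much of that display. Immature mTEC carry little MHC class II, gain it as they come to express Aire, and lower it again afterwards, when many take on features of skin, gut or other surface epithelia. A gate on low MHC class II can therefore hold cells from before and from after the Aire stage.

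RFP+ libraries held 7.93 to 12.93 M counts from 19400 to 20500 sorted cells, and RFP- libraries 10.35 to 13.8 M counts from 80500 to 102800 cells. Mitochondrial ribosomal RNA took 31.4 to 38.53% of counts in RFP+ libraries and 39.16 to 45.89% in RFP- libraries. The first principal component of the 8 libraries, over the 500 most variable genes, separated the populations and held 76.2% of the variance, and the second, with 7.12%, had RFP+ libraries 1 and 4 at its ends. Epithelial identity was present in both: Epcam, which encodes the sorted surface protein, averaged 594 ± 18.8 CPM in RFP+ cells and 467 ± 33.4 CPM in RFP- cells (SD, n = 4 each). Of 10 mTEC and epithelial markers 6 were higher and 2 lower in RFP+ cells. Krt8 and Krt18, keratins of simple epithelium, were higher, with log2 differences of 0.43 and 0.39. The lower 2 were keratin genes of basal epithelium: Krt5 averaged 470.3 ± 9.13 CPM in RFP+ cells and 1342 ± 190.2 CPM in RFP- cells (log2 difference -1.51, adjusted p = 3.26e-11), and Krt14 averaged 97.5 ± 9.06 CPM in RFP+ cells and 437 ± 64.3 CPM in RFP- cells (log2 difference -2.17, adjusted p = 2.15e-13; SD, n = 4 each). Aire itself was not called (log2 difference 0.42, edgeR adjusted p = 0.314), at 13.9, 68, 54.4 and 66.9 CPM in RFP+ cells and 16.3, 23.8, 42.6 and 69 CPM in RFP- cells. Without RFP+ library 1, the lowest, it was called higher in RFP+ cells (log2 difference 0.73, adjusted p = 0.0207), and likewise without RFP- library 4 (0.87, adjusted p = 0.0291). The whole cell type marker lists for fibroblasts, mesothelium, and pericytes and smooth muscle were mainly lower in RFP+ cells, and their values stand with the matrix genes. Of 5 B cell markers 2 were higher and 0 lower, of 5 glial markers 1 was higher and 1 lower, and of 4 erythroid markers 3 were lower. Of 4 parathyroid markers 3 were lower and 1 higher. Pth, parathyroid hormone, had 0.864, 0.366, 32.2 and 0.249 CPM in RFP+ cells and 660.2, 479.9, 381 and 187 CPM in RFP- cells, so it was near 0 in 3 RFP+ libraries and above every RFP+ value in each RFP- library. Its log2 difference was -5.67, and -9.82 without RFP+ library 3. The part of parathyroid RNA in other differences was not tested. No marker list had a member at 0 reads over the 8 libraries.

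Levels are TMM-normalised CPM (counts scaled to a common library total), listed by library 1 to 4, and are not corrected for gene length, so they compare populations and not genes. Differences are log2 ratios of RFP+ over RFP- cells from edgeR's quasi-likelihood test, with p-values adjusted by Benjamini and Hochberg over all 19617 genes. A positive difference is a higher level in RFP+ cells, and a gene was called at an adjusted p under 0.05. Of all genes tested, 51.6% were called, 28.9% higher and 22.7% lower in RFP+ cells. Changes of over 2-fold made up 14.8% and 8.85%, and the 8 libraries did not overlap between populations in 39.5% of genes. The lists hold protein-coding genes only, and of all protein-coding genes tested 30.5% were higher and 24.5% lower. With this background a called gene is common, so groups are described by the split of directions and by size. Genes picked from each list for the size of their difference also had to show no overlap. Their lack of overlap is therefore no further result. In bulk RNA a smaller share of cells of a type and less RNA per cell cannot be told apart.

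The 4 areas examined split differently. Of 535 transcription factors tested, 167 were higher and 147 lower, with a median log2 difference of 0.13, against 0.07 for all genes. Of 630 receptors and ligands, 218 were higher and 172 lower (median 0.24). Metabolism and transport leaned to RFP+ cells, with 418 of 898 genes higher and 138 lower (median 0.35). Matrix and adhesion leaned to RFP- cells, with 76 of 353 genes higher and 183 lower (median -0.58). Fitted on the 8 MHCIIlo libraries alone, fewer genes were called (4152 higher, 3949 lower), and in some lists the number of members higher was lower by over 1.5 times. In that fit 14 basic helix-loop-helix factors, 2 Krüppel-like and SP factors, 6 Hox genes, 3 Wnt ligands and receptors, 5 TGF-beta family ligands and antagonists, 12 cytokines, 7 chemokine receptors and 14 neurotransmitter receptors were higher. Likewise 27 dehydrogenase and conjugation enzymes, 29 sugar, amino acid and related carriers, 19 respiratory chain genes, 7 amino acid enzymes, 3 collagens, 0 small leucine-rich proteoglycans and 4 myeloid markers were higher in it. With the replicate number as a block in that fit, 2 Wnt genes, 12 neurotransmitter receptors and 15 interleukin and haematopoietin receptors were higher.

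**Figure D1:**
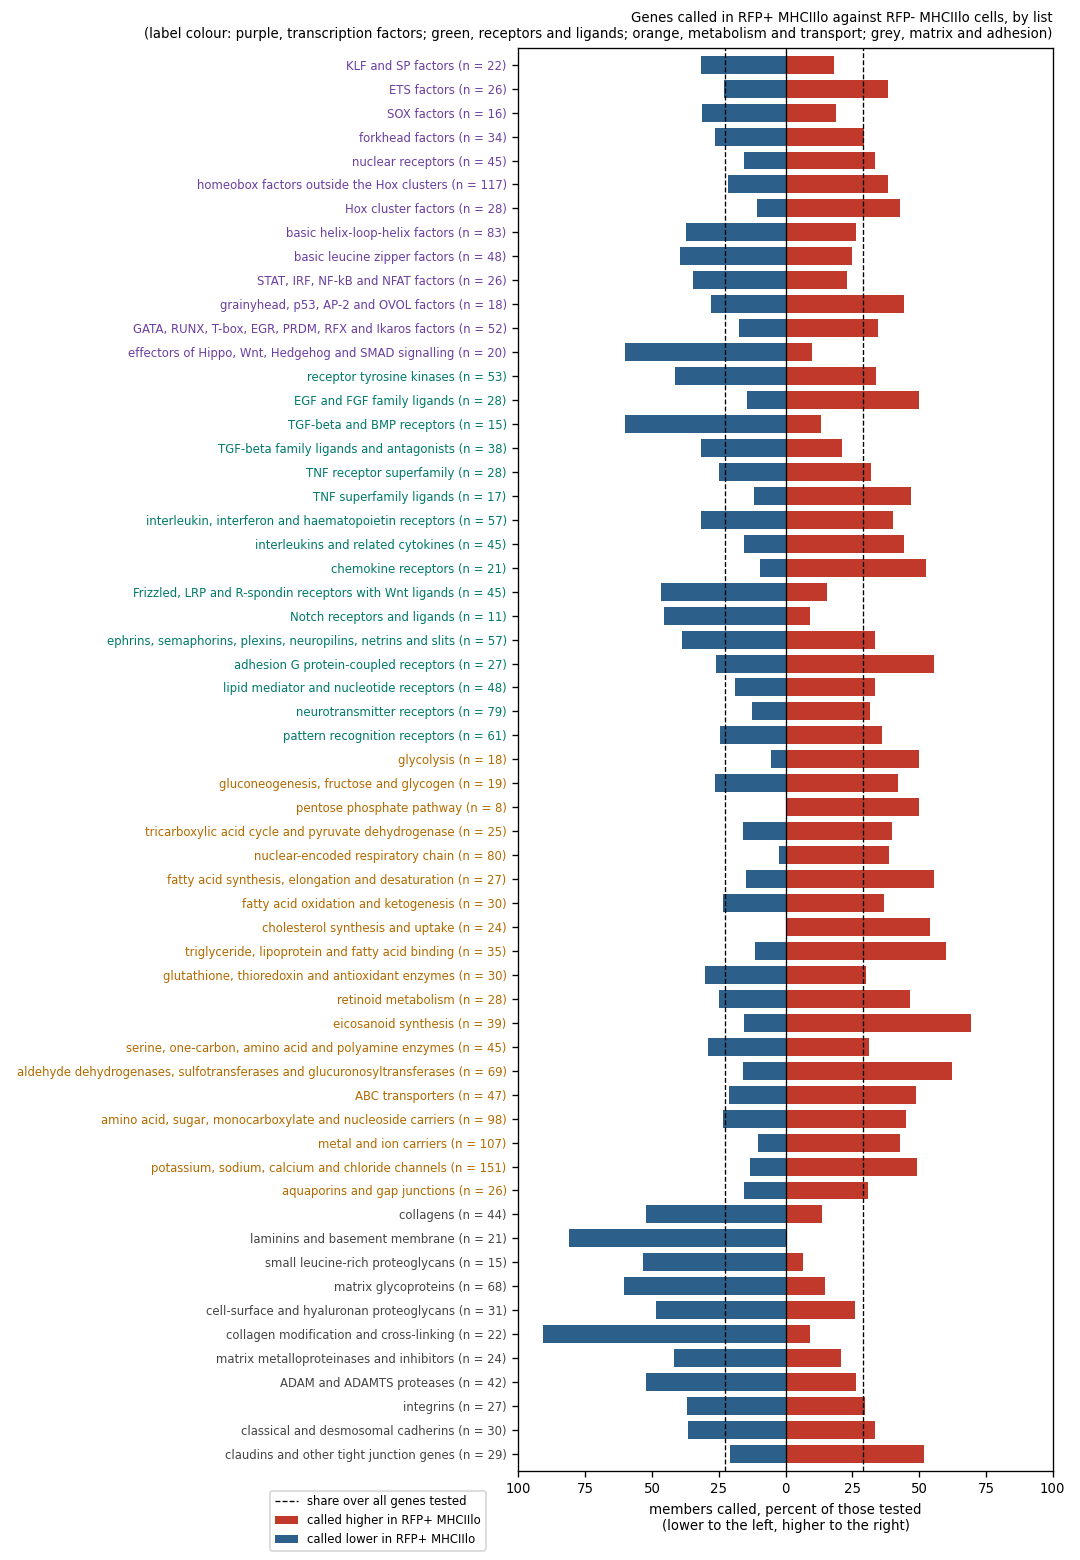
Shares of the tested members of each gene list that were called higher (right) or lower (left) in RFP+ MHCIIlo than in RFP- MHCIIlo cells, in percent, with dashed lines at the shares over all genes (28.9% higher, 22.7% lower). No laminin or basement membrane gene was called higher, and no cholesterol gene was called lower.

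Transcription factor families held members that differed in both directions. Grainyhead, p53, AP-2 and OVOL factors split into 8 higher and 5 lower of 18 tested. Grhl1 (chr12:24572283-24617391), a grainyhead factor that controls desmosome genes of the epidermis, had 75.6, 66.9, 62 and 74.5 CPM in RFP+ cells and 18, 19.6, 18.4 and 14.5 CPM in RFP- cells (log2 difference 1.99, SE 0.10, adjusted p = 1.05e-13). Ovol1, a zinc finger repressor that acts as keratinocytes leave the cell cycle, had 23.2, 26.4, 20.6 and 19.8 CPM in RFP+ cells and 7.76, 5.6, 4.18 and 4.73 CPM in RFP- cells (log2 difference 2.02, SE 0.17, adjusted p = 4.36e-10). The 8 libraries did not overlap in either gene, which the rule for picking genes from a list requires. Grhl3, needed for the skin barrier, differed by 1.30 on the log2 scale, with 32.6 ± 1.75 CPM in RFP+ cells and 13.3 ± 2.67 CPM in RFP- cells (SD, n = 4 each).

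Snai2, a zinc finger repressor active in basal and mesenchymal cells, went the other way. It had 14.4, 16.3, 15.5 and 12.4 CPM in RFP+ cells and 68.1, 78.9, 85.2 and 72.1 CPM in RFP- cells (log2 difference -2.39, SE 0.11, adjusted p = 1.84e-14), so the highest RFP+ library was below every RFP- library. Krüppel-like factors as a family did not lean to RFP+ cells, with 4 higher and 7 lower of 22. Without RFP- library 2 the lower count was 4, and the higher count was 2 without RFP+ library 3 or RFP- library 2, 3 or 4. It was also 2 higher when mitochondrial ribosomal RNA was left out. The epithelial members Klf4 and Klf5, which act in differentiating and in proliferating surface epithelium, were both higher, with log2 differences of 1.0 and 1.05. Klf4 had 169.9, 151, 163 and 127 CPM in RFP+ cells and 84.7, 72, 77.3 and 71 CPM in RFP- cells. Klf2, known from endothelium and resting T cells, was lower (-1.61).

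Mxd1, a MAX partner that opposes MYC, had 234, 253, 242 and 287 CPM in RFP+ cells and 77.8, 81.4, 77.8 and 79 CPM in RFP- cells (log2 difference 1.69, SE 0.076, adjusted p = 1.64e-14). Myc differed in the other direction, by -0.63 on the log2 scale (adjusted p = 6.71e-06). Id1, an inhibitor of basic helix-loop-helix factors and a standard target of BMP signalling, had 16.4, 15.8, 10.8 and 14.5 CPM in RFP+ cells and 58.5, 58.7, 71.8 and 71 CPM in RFP- cells (log2 difference -2.18, SE 0.12, adjusted p = 3.54e-13). Hey2, a Notch target, averaged 1.25 ± 0.151 CPM in RFP+ cells and 10.5 ± 0.481 CPM in RFP- cells (SD, n = 4 each; log2 difference -3.06). Basic helix-loop-helix factors as a group had 22 higher and 31 lower of 83 members.

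Epithelial ETS factors were higher, Ehf by 1.11 and Elf3 by 0.84 on the log2 scale, and the ETS family counted 10 higher and 6 lower of 26. The forkhead factor Foxa1, a pioneer factor of endodermal epithelium, had 70.6, 71.9, 76.5 and 92 CPM in RFP+ cells and 37.9, 28.7, 25.8 and 27 CPM in RFP- cells (log2 difference 1.39, SE 0.11, adjusted p = 1.52e-10). Foxn1, the forkhead factor on which thymic epithelium depends, was lower, with 61.6, 64.7, 77.6 and 60.1 CPM in RFP+ cells and 98.5, 107, 94.1 and 116 CPM in RFP- cells (log2 difference -0.66, adjusted p = 8.30e-07). Pax1 (chr2:147361925-147393295), a factor of the pharyngeal pouches, had 45.6, 41.8, 51.4 and 48.4 CPM in RFP+ cells and 160.1, 169.9, 154 and 219.7 CPM in RFP- cells (log2 difference -1.91, SE 0.14, adjusted p = 4.13e-11), while Pax9 differed by -0.87 on the log2 scale. Hoxa3, which is needed for the thymus primordium, averaged 2.39 ± 0.823 CPM in RFP+ cells and 12.2 ± 2.92 CPM in RFP- cells (log2 difference -2.37; SD, n = 4 each). The 8 libraries did not overlap between populations in Pax1, Pax9, Foxn1 and Hoxa3, nor did they in 39.5% of all genes. For Pax1 and Hoxa3 the rule for picking genes from a list requires this.

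Of 28 Hox cluster genes tested, 12 were higher and 3 lower, at low levels. All members together summed to 41.71 to 49.12 CPM in RFP+ libraries and 49.03 to 55.36 CPM in RFP- libraries. The number higher was 6 to 13 and the number lower 3 to 5 over the alternatives tried. Other homeobox factors counted 45 higher and 25 lower of 117 (median log2 difference 0.60), with 30 higher when the 8 MHCIIlo libraries were fitted alone. Dlx3, a factor of the granular layer of skin, was higher at 12.4, 11.7, 16 and 8.46 CPM in RFP+ cells and 2.55, 2.54, 1.28 and 3.87 CPM in RFP- cells (log2 difference 2.23, SE 0.23, adjusted p = 1.74e-08).

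Nuclear receptors counted 15 higher and 7 lower of 45, or 33.3% higher against 28.9% of all genes, and 11 to 16 were higher over the alternatives tried. The vitamin D receptor gene Vdr had 99.9 ± 11 CPM in RFP+ cells and 47.3 ± 2.82 CPM in RFP- cells (log2 difference 1.08; SD, n = 4 each). Hnf4a, a regulator of liver and gut epithelium, had 14.7, 17.9, 16.3 and 12.9 CPM in RFP+ cells and 3.93, 5.94, 4.26 and 3.1 CPM in RFP- cells (log2 difference 1.83, SE 0.17, adjusted p = 3.83e-09). The sex steroid receptors were lower: Pgr (progesterone receptor) averaged 3.21 ± 0.484 CPM in RFP+ cells and 23.7 ± 4.12 CPM in RFP- cells and Esr1 (oestrogen receptor alpha) 4.41 ± 1.41 CPM in RFP+ cells and 20.1 ± 5.78 CPM in RFP- cells (SD, n = 4 each), with log2 differences of -2.87 and -2.17. The glucocorticoid receptor gene Nr3c1 was not called (61.2 against 65.3 CPM, adjusted p = 0.37). Among the remaining zinc finger factors, Gata3 (1.26), and Prdm1 (1.59), which encodes the repressor Blimp-1, were higher on the log2 scale. Cebpa (0.87) and Cebpb (1.76), leucine zipper factors of metabolic and epidermal differentiation, were higher too, although their family counted 12 higher and 19 lower of 48. Fos was not called (276 against 303 CPM, adjusted p = 0.258).

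**Figure D2:**
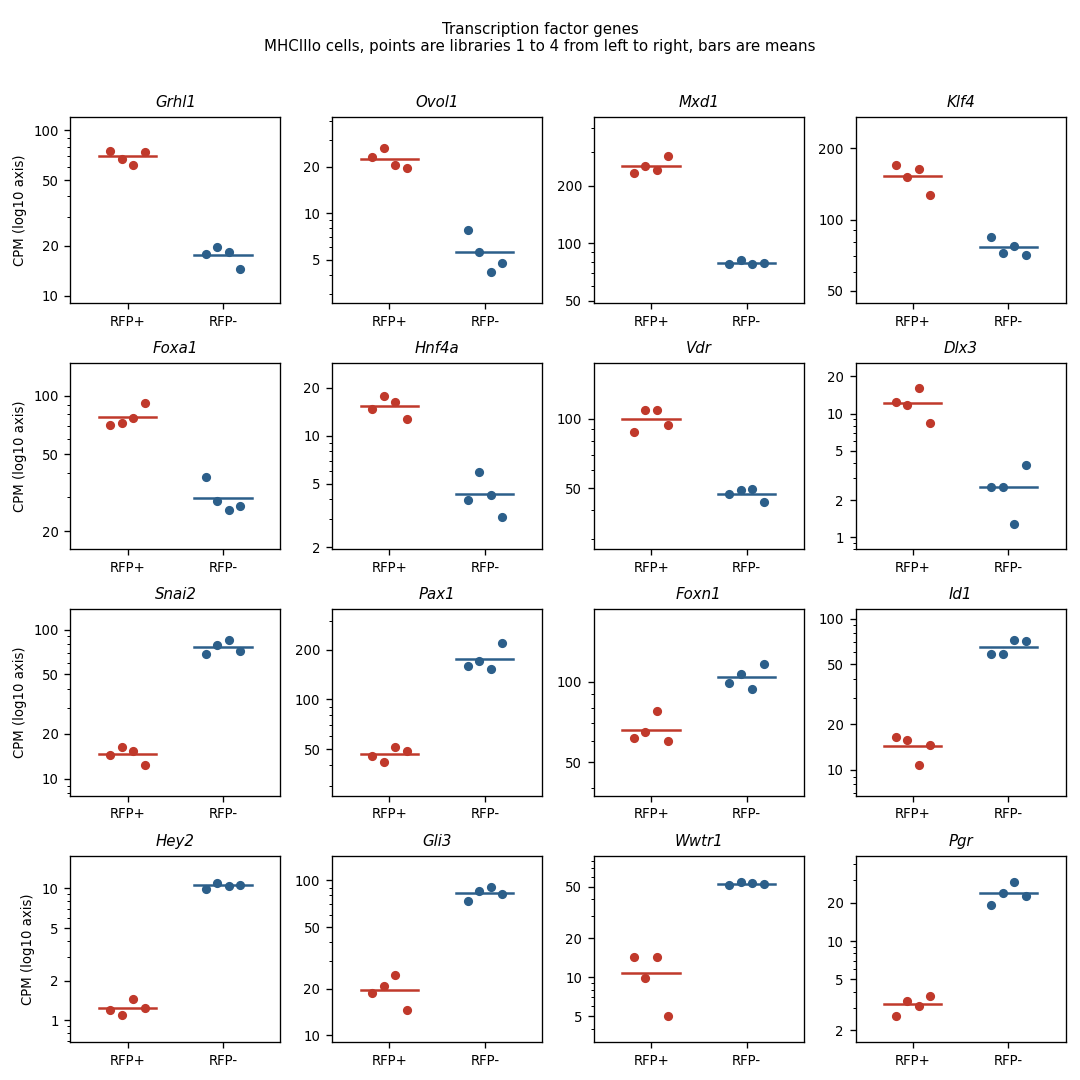
Levels of 16 transcription factor genes in the 4 RFP+ MHCIIlo libraries (left in each panel) and the 4 RFP- MHCIIlo libraries (right), in CPM on a log10 axis, with bars at the means. Grhl1, Ovol1, Mxd1, Klf4, Foxa1, Hnf4a, Vdr and Dlx3 are higher in every RFP+ library, and Snai2, Pax1, Foxn1, Id1, Hey2, Gli3, Wwtr1 and Pgr are lower in every RFP+ library.

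The transcriptional effectors of Hippo, Wnt, Hedgehog and SMAD signalling leaned to RFP- cells, with 2 higher and 12 lower of 20 (median log2 difference -0.58). Hippo signalling restrains the coactivators YAP and TAZ, which bind DNA through TEAD factors and are active in spread, matrix-attached cells. Wwtr1 (chr3:57455649-57575910), which encodes TAZ, had 14.3, 9.87, 14.3 and 5.06 CPM in RFP+ cells and 52, 54.6, 53.2 and 52.5 CPM in RFP- cells (log2 difference -2.30, SE 0.18, adjusted p = 2.36e-10). In MHCIIhi cells Wwtr1 averaged 8.46 CPM in RFP+ MHCIIhi cells and 16.5 CPM in RFP- MHCIIhi cells, so its mean was highest in RFP- MHCIIlo cells among the 4 populations. Gli3, a Hedgehog effector, had 19.7 ± 4.2 CPM in RFP+ cells and 82.8 ± 6.9 CPM in RFP- cells (log2 difference -2.08; SD, n = 4 each), and Lef1, a Wnt effector, was not called (10.7 against 10.1 CPM, adjusted p = 0.821).

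Because of Wwtr1, further genes of the same pathway were looked at after their values were seen. Yap1 had 34.5, 37.5, 28.4 and 36 CPM in RFP+ cells and 88.7, 88.4, 86 and 70.4 CPM in RFP- cells (log2 difference -1.29, SE 0.10, adjusted p = 7.24e-11). Tead1 and Tead2, the DNA-binding partners, differed by -0.52 and -0.66 on the log2 scale, and Tead2 was not called without RFP- libraries 1 and 3 (adjusted p = 0.0585). Ccn1, a secreted matricellular protein and standard YAP and TAZ target, had 24.5, 27.7, 22.9 and 36.1 CPM in RFP+ cells, against 116, 121, 137 and 153 CPM in RFP- cells (log2 difference -2.24, SE 0.12, adjusted p = 1.69e-13). Ccn2, its relative, averaged 1.13 ± 0.461 CPM in RFP+ cells and 5.83 ± 1.93 CPM in RFP- cells (log2 difference -2.33; SD, n = 4 each). The junction protein genes Amotl1 (-2.24), Amotl2 (-1.04) and Ajuba (-1.78), the kinase gene Lats2 (-1.23) and the receptor gene Axl (-1.49) were lower on the log2 scale. These genes were picked with their direction in view, so that they share a direction is a description. Fibroblast, mesothelial, and pericyte and smooth muscle markers were mainly lower in RFP+ cells too. The part of stromal RNA in the values of Wwtr1 and of these genes was not tested.

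The letters GGAATG, the core of the TEAD binding motif, were searched on both strands in RefSeq promoter windows of 300 bases, 250 before and 50 after each start (GRCm38.p6). Of the 11 genes Wwtr1, Yap1, Tead1, Tead2, Ccn1, Ccn2, Amotl1, Amotl2, Lats2, Ajuba and Axl, 9 had a window and 7 of these held the letters. They occurred in 16.6% of the 27025 genes with a window and in 15.1% of the 14004 tested genes with one. Among tested genes with a window they were in 19.5% of those lower by over 2-fold in RFP+ cells and in 16.9% of those higher by over 2-fold. All but Wwtr1 of the 11 genes were picked from this pathway after their values were seen. Their share is therefore a description, and enrichment was not tested. The windows of 4 of the 7 holders are printed, from 250 bases to 1 base before the start. The motif, as read on either strand, is in capitals. They are shown because Wwtr1 and Yap1 encode the coactivators and Ccn1 and Amotl2 are targets of them. The windows lie at chr3:145649986-145650235 on the minus strand for Ccn1, chr3:57575911-57576160 on the minus strand for Wwtr1, chr9:8004597-8004846 on the minus strand for Yap1 and chr9:102717554-102717803 on the plus strand for Amotl2.
Ccn1: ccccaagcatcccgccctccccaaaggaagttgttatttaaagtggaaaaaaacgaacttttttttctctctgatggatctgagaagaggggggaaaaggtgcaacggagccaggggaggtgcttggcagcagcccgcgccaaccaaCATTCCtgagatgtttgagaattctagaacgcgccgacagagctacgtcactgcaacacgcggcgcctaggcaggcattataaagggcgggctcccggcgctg
Wwtr1: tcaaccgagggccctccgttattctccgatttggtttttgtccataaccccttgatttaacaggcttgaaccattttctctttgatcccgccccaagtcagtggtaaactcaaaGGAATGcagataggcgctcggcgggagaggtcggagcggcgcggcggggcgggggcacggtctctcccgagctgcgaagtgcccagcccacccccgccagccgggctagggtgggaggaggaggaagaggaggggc
Yap1: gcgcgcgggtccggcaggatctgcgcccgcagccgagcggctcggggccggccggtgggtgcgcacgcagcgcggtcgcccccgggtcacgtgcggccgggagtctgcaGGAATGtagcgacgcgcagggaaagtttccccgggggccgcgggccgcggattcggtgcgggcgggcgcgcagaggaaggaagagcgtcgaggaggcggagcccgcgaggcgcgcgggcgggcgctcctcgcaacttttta
Amotl2: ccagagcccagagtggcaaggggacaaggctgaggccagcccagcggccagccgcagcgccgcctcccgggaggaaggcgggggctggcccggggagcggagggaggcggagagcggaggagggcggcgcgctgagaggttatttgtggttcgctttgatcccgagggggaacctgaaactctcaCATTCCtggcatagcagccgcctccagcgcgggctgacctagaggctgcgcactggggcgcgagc
The motif began 103 bases before the start in Ccn1, 136 in Wwtr1, 141 in Yap1 and 65 in Amotl2. The motifs of 2 other factor families were searched in the same way. The grainyhead letters AACCGGTT were in 0 of 14 windows of the 20 barrier and surface genes searched, with 0.174% of all genes holding them, and the SREBP letters TCACNCCAC were in 1 of 7 windows of called cholesterol genes (Hmgcs1), with 1.44% of all genes. A match is only a string of letters in this window, and binding was not measured.

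Receptor families split by direction as well. Receptor tyrosine kinases split into 18 higher and 22 lower of 53. Fgfr2 (chr7:130162451-133123350), the epithelial FGF receptor needed for thymus growth, had 51, 32.5, 53.6 and 38.4 CPM in RFP+ cells, against 227, 238, 244 and 215 CPM in RFP- cells (log2 difference -2.39, SE 0.12, adjusted p = 1.41e-13). Egfr, the EGF receptor, had 103, 80.8, 93.4 and 91.9 CPM in RFP+ cells, against 216, 259, 232 and 241 CPM in RFP- cells (log2 difference -1.36, SE 0.083, adjusted p = 2.73e-12). Neither gene overlapped between populations, as 39.5% of all genes did not, and both were even across the RFP- libraries. Erbb3, a partner of EGF receptors, was higher at 112, 113, 99.1 and 136 CPM in RFP+ cells and 46.2, 45.8, 39.9 and 38.9 CPM in RFP- cells (log2 difference 1.43, SE 0.095, adjusted p = 1.09e-11). Tyro3, which recognises dying cells, averaged 15.2 ± 1.4 CPM in RFP+ cells and 4.18 ± 1.88 CPM in RFP- cells (log2 difference 1.88; SD, n = 4 each).

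EGF and FGF family ligands counted 14 higher and 4 lower of 28 (median 0.66). The EGF receptor ligands Areg and Epgn were higher by 2.50 and 3.15 on the log2 scale, with Areg at 8.43, 14.4, 11.8 and 13 CPM in RFP+ cells and 2.23, 1.78, 1.71 and 2.67 CPM in RFP- cells. Epgn averaged 7.33 ± 1.81 CPM in RFP+ cells and 0.826 ± 0.517 CPM in RFP- cells (SD, n = 4 each), and without RFP- libraries 1 and 3 its log2 difference was 4.20. Fgf1 was lower, with 14.5, 14.3, 16.5 and 15.3 CPM in RFP+ cells and 124, 69.5, 192 and 74.9 CPM in RFP- cells (log2 difference -2.92, SE 0.23, adjusted p = 1.67e-10). Its RFP- values were uneven, highest in libraries 1 and 3, as were the mesothelial markers given with the matrix genes, and the part of those cells in the Fgf1 difference was not tested. Without RFP- libraries 1 and 3 its log2 difference was -2.26 (adjusted p = 1.47e-12).

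TGF-beta and BMP receptors were lower in 9 of 15 cases and higher in 2. Tgfbr2, the ligand-binding TGF-beta receptor, had 13.8, 11.7, 16.7 and 18.1 CPM in RFP+ cells and 61.1, 65.3, 71.7 and 71.7 CPM in RFP- cells (log2 difference -2.15, SE 0.12, adjusted p = 1e-12), and Bmpr1a, a BMP receptor, differed by -1.0 on the log2 scale. Of their ligands and antagonists 8 were higher and 12 lower of 38. Fst, which encodes the activin antagonist follistatin, had 4.54, 4.88, 6.03 and 5.22 CPM in RFP+ cells and 37.8, 49, 40.8 and 58.9 CPM in RFP- cells (log2 difference -3.17, SE 0.16, adjusted p = 6.24e-14). The BMP antagonist gene Grem1 was higher, at 18.8 against 5.07 CPM (log2 difference 1.90). Activating receptors and secreted antagonists were thus both among the lower genes.

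Wnt ligands and receptors counted 7 higher and 21 lower of 45 (median -0.75). Fzd2, a Wnt receptor, had 7.35, 3.54, 4.67 and 5.64 CPM in RFP+ cells and 44.3, 46.5, 47.4 and 42.8 CPM in RFP- cells (log2 difference -3.08, SE 0.16, adjusted p = 2.54e-13). Wnt4, a ligand made by thymic epithelium, differed by -1.35, with 34.6 against 88.4 CPM. Notch receptors and ligands counted 5 lower and 1 higher of 11: Notch1 was at 76.8 against 130.0 CPM (-0.76), the ligand gene Jag2 at 18.6 against 62 CPM (-1.75), and Jag1 was not called (adjusted p = 0.298). Guidance cues and their receptors had no lean, with 19 higher and 22 lower of 57. Within them Sema4g, a membrane semaphorin, was higher (87.4 ± 19 CPM in RFP+ cells and 17.6 ± 2.11 CPM in RFP- cells), and Sema6d was lower (42.1 ± 7.66 CPM in RFP+ cells and 185 ± 10.8 CPM in RFP- cells; SD, n = 4 each).

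Interleukin and haematopoietin receptors were higher in 23 and lower in 18 of 57 cases. Lifr, the receptor of leukaemia inhibitory factor, had 164, 128, 155 and 119.9 CPM in RFP+ cells, against 782, 792, 876 and 734 CPM in RFP- cells (log2 difference -2.49, SE 0.13, adjusted p = 2.93e-13). Il12rb2, an interleukin 12 receptor chain, had 48.6, 45.3, 56.9 and 52.3 CPM in RFP+ cells and 13.1, 13.9, 13.1 and 11.4 CPM in RFP- cells (log2 difference 1.98, SE 0.10, adjusted p = 6.34e-14). Il22ra1, which lets surface epithelium respond to interleukin 22, averaged 13.6 ± 3.16 CPM in RFP+ cells and 2.92 ± 0.83 CPM in RFP- cells (log2 difference 2.22; SD, n = 4 each). Il1r2, the decoy receptor of interleukin 1, was lower (6.49 against 35.8 CPM, log2 difference -2.47).

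Cytokine genes counted 20 higher and 7 lower of 45 (median 0.92). Myeloid markers, whose cells also make cytokines and chemokine receptors, were called higher in 7 of 12 cases and lower in none, and summed to 189.3 to 271.8 CPM in RFP+ libraries and 109.7 to 145.5 CPM in RFP- libraries. Lyz2 and Itgam had the highest levels in that sum, while C1qa, C1qb, C1qc, Adgre1 and Siglech were not called. The part of myeloid RNA in the cytokine and chemokine receptor counts was not tested. Il1f6 and Il1f5, the epidermal interleukin 36 alpha and its receptor antagonist, had the largest positive differences among called cytokine genes of at least 5 CPM without overlap. Il1f6 had 46, 30.7, 25 and 26.1 CPM in RFP+ cells and 4.04, 3.48, 1.71 and 2.92 CPM in RFP- cells (log2 difference 3.41, SE 0.22, adjusted p = 8.48e-12), and Il1f5 had 41.3, 40.6, 37.2 and 40.9 CPM in RFP+ cells and 4.68, 5.51, 4.01 and 3.7 CPM in RFP- cells (log2 difference 3.16, SE 0.15, adjusted p = 2.48e-14). An agonist and its antagonist were thus both higher. Il33, an alarmin kept in the nucleus, was lower at 4.86, 5.97, 8.93 and 3.73 CPM in RFP+ cells and 24.1, 26.6, 31 and 38.6 CPM in RFP- cells (log2 difference -2.37, SE 0.21, adjusted p = 1.13e-09), and Csf1, the macrophage growth factor, was lower at 23.2 against 89.1 CPM (log2 difference -1.94).

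Chemokine receptors counted 11 higher and 2 lower of 21. Ccr4 averaged 19.2 ± 4.87 CPM in RFP+ cells and 2.96 ± 2.12 CPM in RFP- cells (log2 difference 2.67; SD, n = 4 each), with RFP- library 4 above the others of its group, and without that library the log2 difference was 3.31. Ccr7, the receptor that brings T cells to the medulla, was higher at 26.9 against 11.6 CPM (1.20). Thymocyte markers were higher too: 6 of 12 were called higher and none lower, and together they summed to 45.38 to 120.2 CPM in RFP+ libraries and 28.59 to 58.17 CPM in RFP- libraries. The count of thymocyte markers called higher was 1 to 9 over the alternatives tried: it was 9 without RFP+ library 1, 1 without RFP+ library 3, 4 without RFP+ library 4, 3 without RFP- library 1 and 2 without RFP- library 4. The part of thymocyte RNA in the Ccr4 and Ccr7 values was not tested. Ackr4, a scavenging receptor for the ligands of CCR7, was lower at 36.8, 28.3, 36.6 and 31.8 CPM in RFP+ cells and 61.8, 70.8, 71.4 and 123 CPM in RFP- cells (log2 difference -1.29, SE 0.15, adjusted p = 2.13e-07).

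Other surface receptors were higher in RFP+ cells more often than lower, as were all genes (28.9% against 22.7%). Adhesion G protein-coupled receptors had 15 higher and 7 lower of 27, among them Adgrf1 (5.49 ± 1.01 CPM in RFP+ cells and 0.864 ± 0.200 CPM in RFP- cells) and Adgrf4 (39 ± 7.29 CPM in RFP+ cells and 7.54 ± 1.97 CPM in RFP- cells; SD, n = 4 each). P2ry4, a receptor for uridine nucleotides, had 11.5, 18.4, 16.5 and 21.1 CPM in RFP+ cells and 2.23, 1.27, 2.3 and 1.38 CPM in RFP- cells (log2 difference 3.24, SE 0.23, adjusted p = 2.60e-11). The lysophospholipid receptor genes Lpar1 and S1pr3 were lower, with log2 differences of -2.48 and -2.21. Neurotransmitter receptors counted 25 higher and 10 lower of 79. Their share higher, 31.65%, was near the 28.9% of all genes, and 12.66% were lower against 22.7%. Over the alternatives tried 12 to 29 were higher, and without RFP+ library 4 the lower count was 16. Gabrp, the epithelial subunit of the GABA receptor, was at 237, 263, 238 and 237 CPM in RFP+ cells and 103, 80.3, 64 and 69.3 CPM in RFP- cells (log2 difference 1.63, SE 0.13, adjusted p = 2.73e-10).

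**Figure D3:**
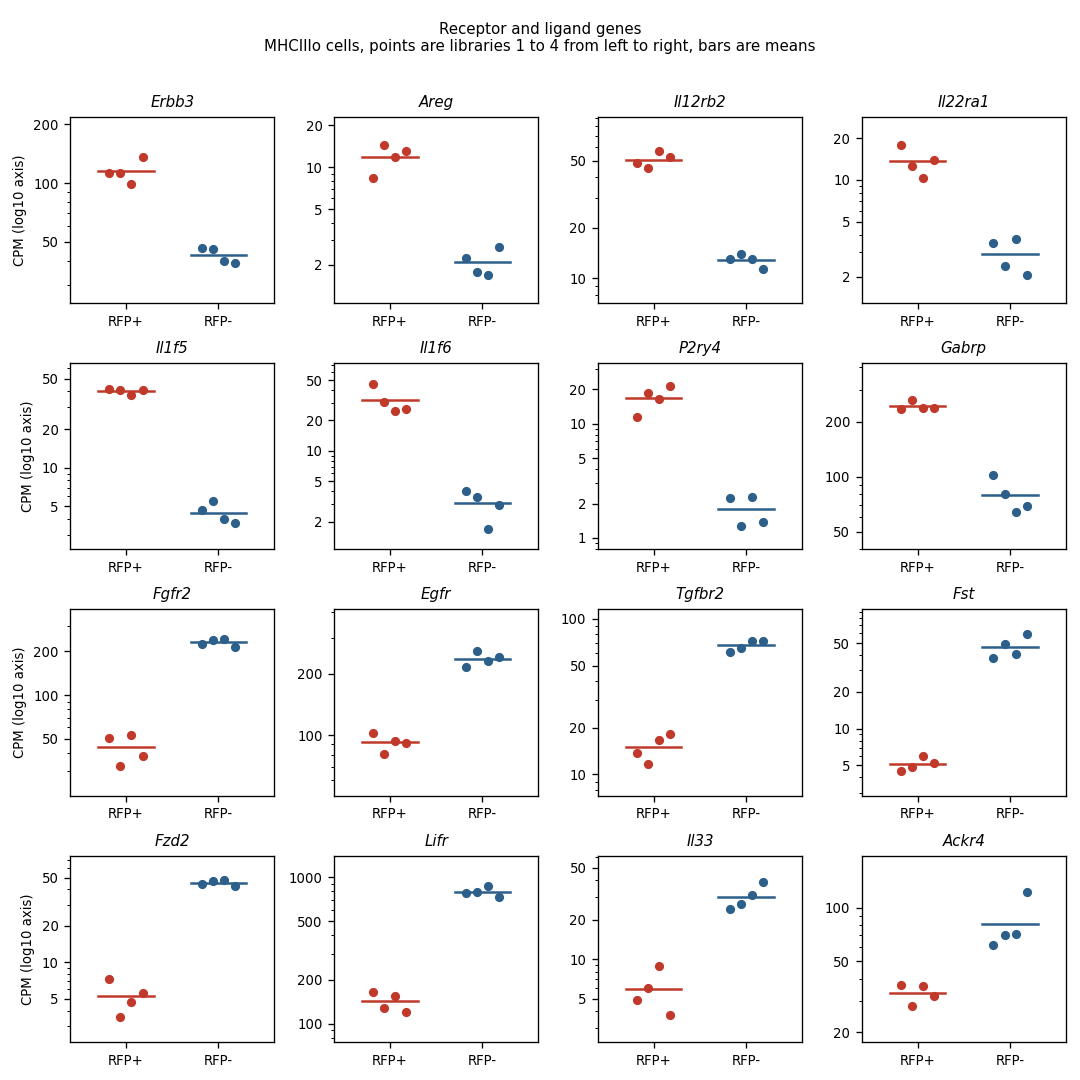
Levels of 16 receptor and ligand genes in the 4 RFP+ MHCIIlo libraries (left in each panel) and the 4 RFP- MHCIIlo libraries (right), in CPM on a log10 axis, with bars at the means. The upper 2 rows are genes higher in RFP+ cells (Erbb3, Areg, Il12rb2, Il22ra1, Il1f5, Il1f6, P2ry4, Gabrp) and the lower 2 rows genes lower in them.

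Metabolic lists differed in how many of their members were higher in RFP+ cells. Glycolysis genes counted 9 higher and 1 lower of 18, with a median log2 difference of 0.25. Ldha, which makes lactate, was not called (adjusted p = 0.431). Of 80 nuclear genes of the respiratory chain 31 were higher and 2 lower, none by over 2-fold, and without RFP- libraries 1 and 3 the higher count was 12. The tricarboxylic acid cycle gave 10 higher and 4 lower of 25, and without those 2 libraries 5 were higher. Without RFP+ library 4 the lower count was 7.

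Fatty acid synthesis, elongation and desaturation counted 15 higher and 4 lower of 27. Elovl4 (chr9:83778692-83806277), which makes the very long chain fatty acids of the skin barrier, had 88, 98.7, 65 and 75.8 CPM in RFP+ cells and 18.8, 15.3, 14.7 and 13.8 CPM in RFP- cells (log2 difference 2.39, SE 0.12, adjusted p = 7.91e-14). Fasn, the synthase at the start of the pathway, was not called (83.8 against 88.9 CPM, adjusted p = 0.659). Fads1 and Fads2, desaturases of polyunsaturated fatty acids, were lower, with log2 differences of -2.20 and -2.0, with Fads1 at 5.08, 5.12, 4.47 and 3.07 CPM in RFP+ cells and 21.4, 14.7, 24.4 and 20.1 CPM in RFP- cells. The elongase and the desaturases therefore differed in opposite directions.

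Cholesterol synthesis and uptake had 13 genes higher and 0 lower of 24, at a median of 0.30. This count was 7 without RFP+ libraries 1 and 4 and 8 without RFP- libraries 1 and 3, and 1 gene was called lower without RFP+ library 1 or RFP+ library 4. Dhcr7, the last enzyme of the pathway, was at 22.5 against 8.6 CPM (log2 difference 1.38). Lipoprotein and fatty acid binding genes counted 21 higher and 4 lower of 35. Apoc2, a cofactor of lipoprotein lipase, had 40.4, 69.1, 49.7 and 75.7 CPM in RFP+ cells and 2.76, 4.33, 5.8 and 5.25 CPM in RFP- cells (log2 difference 3.67, SE 0.20, adjusted p = 2.38e-13). Apoe, the lipid carrier of many tissues, went the other way with 52, 51.8, 62 and 56.5 CPM in RFP+ cells, against 264, 276, 270.5 and 372 CPM in RFP- cells (log2 difference -2.41, SE 0.13, adjusted p = 2.84e-13). Fabp5, the epidermal fatty acid binding protein gene, differed by 0.83.

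Eicosanoid synthesis leaned to RFP+ cells, with 27 genes higher and 6 lower of 39 (median 0.92). Alox12b, the lipoxygenase of the cornified lipid envelope, had 34.8, 26.1, 25.2 and 29.1 CPM in RFP+ cells and 3.83, 2.21, 2.98 and 2.75 CPM in RFP- cells (log2 difference 3.31, SE 0.16, adjusted p = 6.82e-14). Ptgds, a prostaglandin D synthase, had 19.9, 23.3, 26.3 and 30.8 CPM in RFP+ cells and 1.59, 2.12, 2.05 and 1.89 CPM in RFP- cells (log2 difference 3.70, SE 0.16, adjusted p = 8.86e-15). Alox5 and Ptgs1, which are also expressed by tuft cells, were higher by 0.98 and 0.81. Ptgis, the prostacyclin synthase, was lower, at 0.756, 0.122, 1.04 and 1.66 CPM in RFP+ cells and 11.5, 6.28, 28.1 and 7.66 CPM in RFP- cells (log2 difference -3.80, SE 0.45, adjusted p = 2.13e-07), with its highest RFP- values in libraries 1 and 3 as for Fgf1. Its log2 difference was -3.14 without RFP- library 3, -2.88 without RFP- libraries 1 and 3, and -4.43 without RFP+ libraries 1 and 4.

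Retinoid genes counted 13 higher and 7 lower of 28. Aldh1a2, a retinoic acid synthase, was lower (5.04 ± 1.2 CPM in RFP+ cells and 22.1 ± 12.9 CPM in RFP- cells), again with the higher RFP- values in libraries 1 and 3 (log2 difference -2.13, and -1.39 without them). Alcohol and aldehyde dehydrogenases, sulfotransferases, glucuronosyltransferases and related drug-handling enzymes had 43 higher and 11 lower of 69, with a median of 1.24. Adh1, an alcohol dehydrogenase that also oxidises retinol, had 99.4, 103, 96.7 and 75.7 CPM in RFP+ cells and 19.8, 19.6, 15.5 and 16.4 CPM in RFP- cells (log2 difference 2.40, SE 0.11, adjusted p = 3.78e-14). Sult2b1, the cholesterol sulfotransferase of skin, was at 21.2 against 6.22 CPM (1.77). Several of these families have members of similar sequence, whose reads may be shared. Sult5a1 was lower, with 8.06 ± 0.967 CPM in RFP+ cells and 53.7 ± 5.33 CPM in RFP- cells (log2 difference -2.73; SD, n = 4 each).

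Amino acid enzymes showed no common direction, 14 higher and 13 lower of 45, with 9 higher without RFP- libraries 1 and 3. Hal (chr10:93488768-93519304), the histidine ammonia-lyase that forms urocanic acid in the upper epidermis, had 59.1, 49.5, 51.1 and 48.8 CPM in RFP+ cells and 5.95, 6.28, 6.91 and 5.93 CPM in RFP- cells (log2 difference 3.05, SE 0.10, adjusted p = 3.51e-16). Psat1, the aminotransferase of serine synthesis, had 16.5, 14.1, 11.3 and 17.4 CPM in RFP+ cells, against 64.8, 80.4, 56.4 and 92.2 CPM in RFP- cells (log2 difference -2.30, SE 0.16, adjusted p = 2.16e-11). Oat, the ornithine aminotransferase, was lower at 34.7 against 121 CPM (-1.80). Hal and Psat1 differed in opposite directions.

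Carriers and channels were higher more often than lower. Sugar, amino acid and related carriers counted 44 higher and 23 lower of 98, and metal and ion carriers 46 and 11 of 107. Slc5a1, the sodium glucose cotransporter of the gut, had 33.2, 39.9, 35.2 and 33.7 CPM in RFP+ cells and 6.27, 4.84, 3.75 and 3.61 CPM in RFP- cells (log2 difference 2.95, SE 0.15, adjusted p = 1.50e-13). Slc38a4, a neutral amino acid carrier, was lower at 4.11, 4.14, 3.53 and 6.14 CPM in RFP+ cells and 32.4, 41.7, 35.7 and 40.3 CPM in RFP- cells (log2 difference -3.04, SE 0.16, adjusted p = 1.75e-13). Ion channels had 74 higher and 20 lower of 151 (median 0.70). Ano9, an anoctamin of epithelia, was at 69.1 ± 2.74 CPM in RFP+ cells and 11.3 ± 2.29 CPM in RFP- cells (2.63), and Scnn1a, a subunit of the epithelial sodium channel, at 125 against 55.8 CPM (1.16). Gjb6, a connexin of stratified epithelium, had 30.9, 29.4, 30 and 36.6 CPM in RFP+ cells and 4.89, 4.75, 5.03 and 4.73 CPM in RFP- cells (log2 difference 2.71, SE 0.12, adjusted p = 1.84e-14). Abca12, the lipid transporter of keratinocyte lamellar granules, had 73.9, 60.6, 74.9 and 60.9 CPM in RFP+ cells and 9.57, 6.28, 5.54 and 5.42 CPM in RFP- cells (log2 difference 3.35, SE 0.14, adjusted p = 8.09e-15). The ABC transporters together counted 23 higher and 10 lower of 47, with 6 lower without RFP- libraries 1 and 3.

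**Figure D4:**
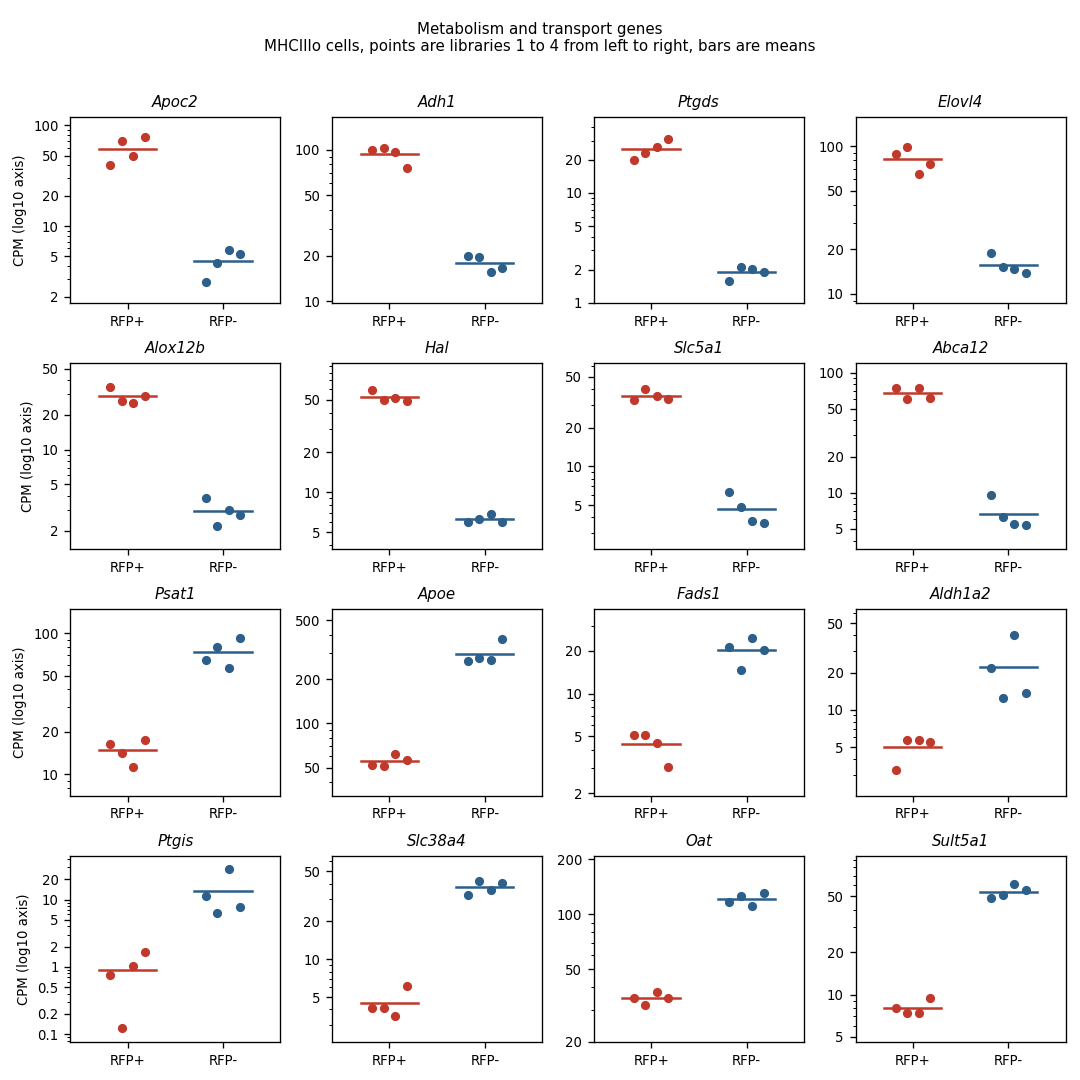
Levels of 16 metabolic and transport genes in the 4 RFP+ MHCIIlo libraries (left in each panel) and the 4 RFP- MHCIIlo libraries (right), in CPM on a log10 axis, with bars at the means. The upper 2 rows are higher in RFP+ cells, among them Apoc2, Alox12b and Ptgds, and the lower 2 rows are lower in them, such as Psat1, Apoe and Fads1.

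The basement membrane and the collagen machinery were lower in RFP+ cells nearly throughout. Of 21 laminin and basement membrane genes 17 were lower, 0 higher and 4 not called, with a median log2 difference of -1.49. Lama3 encodes a chain of a laminin of hemidesmosomes, which anchor basal epithelium. Lama3 had 71.9, 81.7, 87.1 and 83.7 CPM in RFP+ cells, against 273, 326, 345 and 266 CPM in RFP- cells (log2 difference -1.90, SE 0.094, adjusted p = 6.85e-14). Its lowest RFP- value was above its highest RFP+ value.

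The integrin that binds this laminin was lower as well. Itga6 had 159, 135, 147 and 145 CPM in RFP+ cells, against 383, 377, 437 and 452 CPM in RFP- cells (log2 difference -1.49, SE 0.085, adjusted p = 7.19e-13), and its partner Itgb4 differed by -1.30 on the log2 scale, with 139 ± 5.66 CPM in RFP+ cells and 341 ± 15.6 CPM in RFP- cells (SD, n = 4 each). Col17a1, the hemidesmosome collagen gene, was not called (36.3 against 43 CPM, adjusted p = 0.0609), although 9 of 19 alternatives called it lower. Integrins as a family had 8 higher and 10 lower of 27. The higher ones included Itgb6 and Itgb8, whose products activate latent TGF-beta: Itgb6 had 31.2, 32.5, 31 and 34.9 CPM in RFP+ cells and 14.1, 14, 13.5 and 11.6 CPM in RFP- cells (log2 difference 1.29, SE 0.10, adjusted p = 4.04e-10), and Itgb8 differed by 1.45, with 137 ± 3.71 CPM in RFP+ cells and 50.1 ± 2.17 CPM in RFP- cells (SD, n = 4 each).

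Collagens counted 23 lower and 6 higher of 44, the higher count being 3 without RFP+ library 4 and 2 without RFP+ libraries 1 and 4. Col4a1, of the basement membrane network, had 57.2, 67.2, 80.6 and 81.8 CPM in RFP+ cells, against 272, 304, 331 and 315 CPM in RFP- cells (log2 difference -2.09, SE 0.10, adjusted p = 5.92e-14). Col12a1, a collagen that sits on fibrils, had 29.7, 25.4, 37 and 35.9 CPM in RFP+ cells, against 231, 243, 293 and 275 CPM in RFP- cells (log2 difference -3.02, SE 0.11, adjusted p = 6.52e-16). In collagen modification and cross-linking 20 of 22 genes were lower and 2 higher, so no member was left uncalled. Serpinh1, the collagen chaperone, had 23.1, 13.3, 17.3 and 20.9 CPM in RFP+ cells and 103, 99.8, 106 and 112 CPM in RFP- cells (log2 difference -2.48, SE 0.12, adjusted p = 6.59e-14), and Lox, which cross-links collagen and elastin, averaged 7.17 ± 3.31 CPM in RFP+ cells and 58.2 ± 8.07 CPM in RFP- cells (log2 difference -2.98; SD, n = 4 each).

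Matrix glycoproteins were lower in 41 and higher in 10 of 68 (median -1.12). Sparc, a collagen-binding protein, had 53.5, 36.8, 76.3 and 55.6 CPM in RFP+ cells, against 362, 315, 497 and 449 CPM in RFP- cells (log2 difference -2.87, SE 0.16, adjusted p = 5.40e-13). Fn1, fibronectin, was lower (log2 difference -1.91), and Mgp, an inhibitor of calcification, had 13.1, 13, 20.7 and 20.2 CPM in RFP+ cells and 181, 179.6, 296 and 192 CPM in RFP- cells (log2 difference -3.65, SE 0.16, adjusted p = 1.64e-14). Small leucine-rich proteoglycans counted 8 lower and 1 higher of 15, with Bgn (biglycan) at 9.73 against 48.3 CPM (-2.27). Metalloproteinases and their inhibitors split into 5 higher and 10 lower of 24. Mmp9, a gelatinase, was lower at 12.7 ± 2.69 CPM in RFP+ cells and 66.5 ± 5.11 CPM in RFP- cells, and Mmp7, matrilysin of glandular epithelium, was higher at 92.3 ± 14.8 CPM in RFP+ cells and 30 ± 6.1 CPM in RFP- cells (SD, n = 4 each). The ADAM and ADAMTS proteases gave 11 higher and 22 lower of 42.

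Cell junction genes moved in both directions. Cdh1, E-cadherin, was not called (-0.16 on the log2 scale, adjusted p = 0.0987), and 3 of 19 alternatives called it lower. Cdh3, the P-cadherin of basal cells, had 28.2, 19.1, 27.3 and 18.1 CPM in RFP+ cells and 102, 104, 121 and 116 CPM in RFP- cells (log2 difference -2.26, SE 0.13, adjusted p = 9.55e-13). Dsc1, a desmocollin of upper epidermis, had 38.9, 31.2, 33.4 and 24.6 CPM in RFP+ cells and 3.83, 2.71, 2.13 and 2.06 CPM in RFP- cells (log2 difference 3.59, SE 0.20, adjusted p = 4.31e-13). Claudins and other tight junction genes leaned to RFP+ cells, 15 higher against 6 lower of 29. Cldn4, a barrier claudin, had 99, 95, 116 and 117 CPM in RFP+ cells and 37.1, 41, 25.8 and 31.9 CPM in RFP- cells (log2 difference 1.66, SE 0.11, adjusted p = 1.46e-11), and Cldn2, a pore-forming claudin, averaged 28.3 ± 7.3 CPM in RFP+ cells and 7.12 ± 2.67 CPM in RFP- cells (log2 difference 2.0; SD, n = 4 each).

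Markers of non-epithelial stroma stood beside these matrix differences. Of 12 fibroblast markers 10 were lower in RFP+ cells, and they summed to 167 to 299 CPM in RFP+ libraries and 1186 to 1838 CPM in RFP- libraries. Of 7 mesothelial markers tested 6 were lower, with Msln not called. Upk3b, a defining mesothelial gene, had 0.324, 0.244, 5.4 and 1.82 CPM in RFP+ cells and 61.3, 26.6, 123 and 40.3 CPM in RFP- cells. RFP- libraries 1 and 3 were above libraries 2 and 4 for it and for the summed list, which also holds Msln. Of 8 pericyte and smooth muscle markers 6 were lower, and they summed to 322 to 433 CPM in RFP+ libraries and 951 to 1162 CPM in RFP- libraries. Of 10 endothelial markers 7 were lower and 3 higher.

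When RFP- libraries 1 and 3 were left out, an alternative chosen after seeing the data, 16 of 21 basement membrane genes and 18 of 22 collagen modification genes were lower, and the fibroblast list had 9 of 12 lower. The part of stromal RNA in the matrix differences, and in transcription factor, receptor and other genes lower in RFP+ cells, was not tested. Of 8 cortical epithelial markers 5 were lower, 2 higher and 1 not called. They summed to 378.9 to 497.7 CPM in RFP+ libraries and 999.8 to 1219 CPM in RFP- libraries, with Ctsl at the highest level. The part of cortical epithelial RNA in genes lower in RFP+ cells, Foxn1 and Pax1 among them, was not tested.

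**Figure D5:**
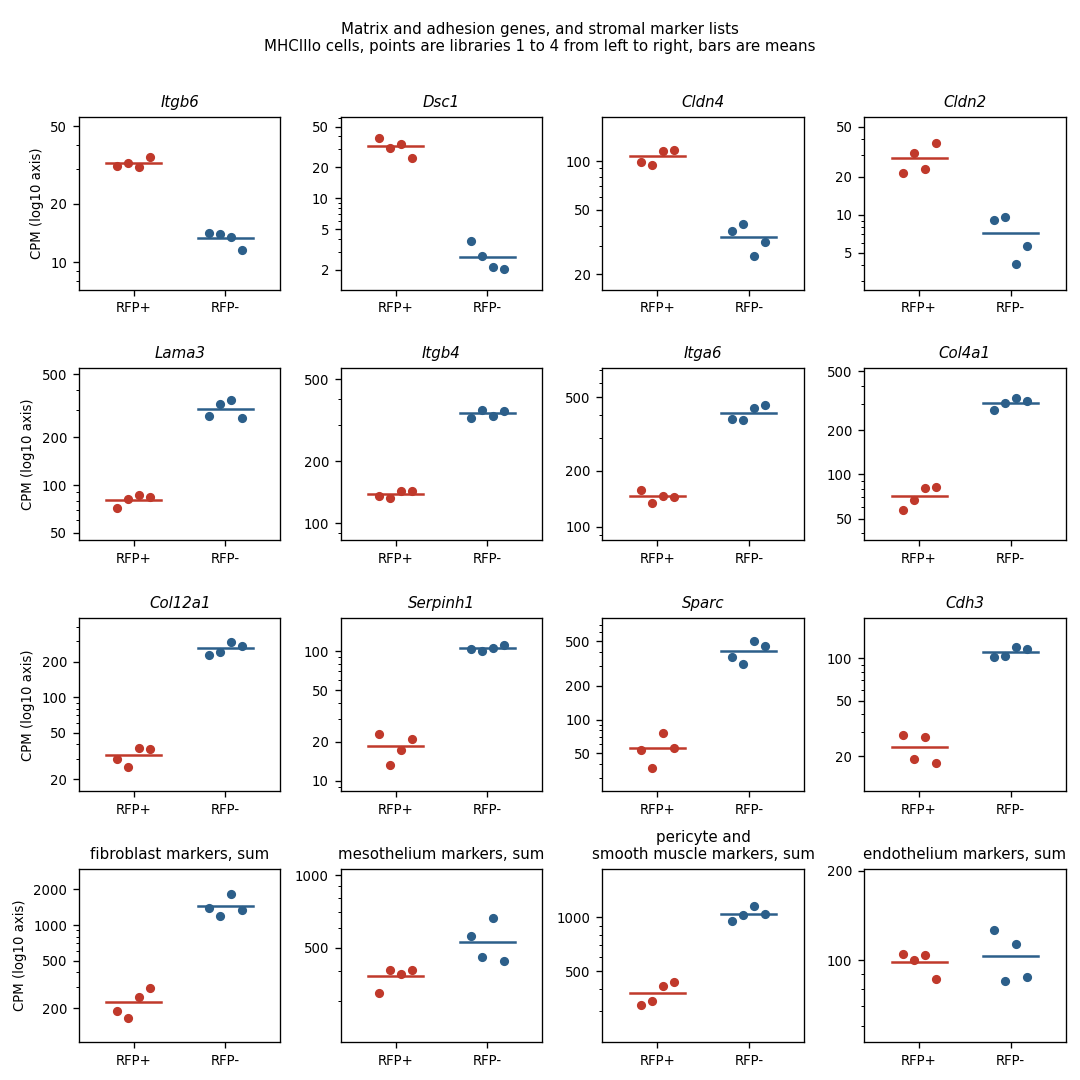
Levels of 12 matrix and adhesion genes and, in the bottom row, summed levels of 4 stromal marker lists, in the 4 RFP+ MHCIIlo libraries (left in each panel) and the 4 RFP- MHCIIlo libraries (right), in CPM on a log10 axis, with bars at the means. Lama3, Itgb4, Itga6 and Col12a1 are lower in every RFP+ library. The mesothelial sum is higher in RFP- libraries 1 and 3 than in 2 and 4.

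Outside the lists, the 10 largest differences in each direction among protein-coding genes of at least 20 CPM were taken by rule. Higher in RFP+ cells, by 3.68 to 4.48 on the log2 scale, were Ttr, Saa3, Tff3, Krt1, Krt77, Cyp2b19, Klk13, Ear1, Stfa3 and Lor. Saa3, an acute phase protein gene, had 345, 354, 379.5 and 389 CPM in RFP+ cells and 17.3, 19.9, 22.3 and 26.5 CPM in RFP- cells (log2 difference 4.09, SE 0.11, adjusted p = 3.05e-17), and Krt1, a suprabasal keratin gene, had 320.3, 207, 322 and 193 CPM in RFP+ cells and 22.7, 16.5, 13.1 and 15.1 CPM in RFP- cells (log2 difference 3.96, SE 0.19, adjusted p = 3.73e-14). Lower, with log2 differences of -4.88 to -3.48, were Cav1, Scgb3a1, Igfbp6, Cavin2, Gas1, Thbd, Pkhd1l1, Aebp1, Igfbp2 and Igfbp3. Gas1, a membrane protein that binds Hedgehog, had 15.5, 7.92, 14.6 and 7.55 CPM in RFP+ cells, against 151, 148, 144 and 171 CPM in RFP- cells (log2 difference -3.76, SE 0.16, adjusted p = 7.55e-15). Thbd, thrombomodulin, had 8.21, 4.63, 9.45 and 9.54 CPM in RFP+ cells and 84.7, 71.9, 151 and 115 CPM in RFP- cells (log2 difference -3.71, SE 0.23, adjusted p = 4.13e-12). Igfbp2 and Igfbp3, which bind insulin-like growth factors, averaged 2.73 ± 0.689 CPM in RFP+ cells and 31.1 ± 4.53 CPM in RFP- cells and 5.34 ± 0.58 CPM in RFP+ cells and 60 ± 10.9 CPM in RFP- cells (SD, n = 4 each). Gas1 and Igfbp2 were even across RFP- libraries, and Thbd was higher in RFP- library 3 than in the others. The Saa, Ear, Cyp2b, Klk and Stfa genes have close relatives, so their single values are uncertain where reads were shared.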

How the data were processed

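Poly(A) RNA of sorted mTEC was sequenced, per the labels' protocols. Per the submitters' processing notes the authors aligned reads with STAR to GRCm38, and DESeq2 is named too. The values they deposited are raw counts per Ensembl gene. Neither the counting tool nor the annotation release nor the use of strand is given in the sources used here. Reads on overlapping, antisense or closely related genes may therefore be counted for either. Symbols and coordinates came from GENCODE M21, which held 42548 of 43432 gene IDs (0.098% of reads lay on the other 884).

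The counts were fitted in edgeR 4.0.16 (R 4.3.3), with filterByExpr (minimum count 10, total 15), TMM and 1 quasi-likelihood fit over 16 libraries with a mean per population. DESeq2 1.42.0 and limma-voom (limma 3.58.1) were alternatives. The standard error is the size of the log2 difference divided by the square root of F. The fit was tested on simulated data. No library was a copy of another of its population (chi-square per degree of freedom 3.18 to 36.78 in 24 pairs). The 7.93 to 13.8 M counts per MHCIIlo library set the precision.

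The comparison, the gene lists and the naming rule were chosen with earlier results of these data known. Named are sentinel genes and, per list and direction, up to 2 genes with the largest log2 difference among called genes with at least 5 CPM and no overlap, plus 10 per direction from outside the lists at 20 CPM. Of 132 sentinels 55 were higher, 50 lower and 27 not called, and 221 genes were picked from 59 lists. Not all are described. Yap1, Tead1, Tead2, Ccn1, Ccn2, Amotl1, Amotl2, Lats2, Ajuba and Axl were added after their values were seen. Markers of other cell types were named to check the sort.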

Additional observations from a re-analysis of the deposited data

Results flagged for a closer look

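In 278 groups of 4 libraries (139 genes in both populations), 21 times the highest or lowest library stood apart from the other 3 by Dixon's criterion. Chance flags about 1 in 20 groups. RFP+ library 1 was the highest of its 4 for Klf5 at 155 CPM (others 132 to 136 CPM). RFP+ library 1 was the lowest of its 4 for Aldh1a2 at 3.24 CPM (others 5.47 to 5.73 CPM) and Col17a1 at 27.1 CPM (others 38.9 to 39.7 CPM). RFP+ library 2 was the highest of its 4 for Ano9 at 73.3 CPM (others 67.6 to 67.9 CPM) and Gabrp at 262.5 CPM (others 236.5 to 238.3 CPM). RFP+ library 3 was the highest of its 4 for Il1r2 at 8.52 CPM (others 5.62 to 6.09 CPM), Klf2 at 7.89 CPM (others 4.32 to 4.75 CPM) and Pth at 32.2 CPM (others 0.249 to 0.864 CPM). RFP+ library 3 was the lowest of its 4 for Il1f5 at 37.2 CPM (others 40.6 to 41.3 CPM). RFP- library 1 was the highest of its 4 for Ano9 at 14.7 CPM (others 9.67 to 10.5 CPM), Klf5 at 79.7 CPM (others 62.4 to 64.7 CPM) and Krt8 at 228 CPM (others 199 to 204 CPM). RFP- library 1 was the lowest of its 4 for Ccr7 at 7.33 CPM (others 12.5 to 13.4 CPM) and Csf1 at 74.8 CPM (others 92.8 to 96 CPM). RFP- library 3 was the highest of its 4 for Mgp at 296 CPM (others 179.6 to 192 CPM). RFP- library 4 was the highest of its 4 for Ackr4 at 123 CPM (others 61.8 to 71.4 CPM), Apoe at 372 CPM (others 264 to 276 CPM), Ccr4 at 6.11 CPM (others 1.49 to 2.13 CPM), Cebpb at 6.97 CPM (others 3.48 to 3.92 CPM) and Dhcr7 at 11.9 CPM (others 7.33 to 7.65 CPM). RFP- library 4 was the lowest of its 4 for Yap1 at 70.4 CPM (others 86 to 88.7 CPM). Refitted without the library that stood apart, each of these genes kept its direction and its call or lack of one. Without RFP- library 4, which holds 6 of these, the log2 differences were Ackr4 -1.03 (-1.29 with all libraries), Apoe -2.28 (-2.41 with all libraries), Ccr4 3.31 (2.67 with all libraries), Cebpb 2.05 (1.76 with all libraries), Dhcr7 1.58 (1.38 with all libraries) and Yap1 -1.36 (-1.29 with all libraries).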

How the results depend on the processing

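Over 19 alternatives the comparison called 8101 to 10434 genes. The lowest count (4152 higher, 3949 lower) came from fitting the 8 MHCIIlo libraries alone and the highest from no filter on low counts (6010 higher, 4424 lower). No gene called both ways changed sign. The share of called genes that were higher was 50.69 to 57.6%. It was 50.82% without mitochondrial ribosomal RNA, with 5154 genes higher and 4988 lower, against 5677 and 4452 with it. The alternative without RFP- libraries 1 and 3, chosen after seeing the data, called 8555 genes, of which 8165 were also called with all libraries. Replicate numbers were shared by both populations. The deviations of same-numbered libraries had low correlations (0.124, 0.0239, 0.0147 and 0.0195), against -0.121 to 0.079 for libraries of different numbers. They were not treated as pairs in the main fit. These correlations cannot show whether same-numbered libraries came from the same thymi. With the replicate number as a block 10223 genes were called (5677 higher, 4546 lower), 9962 of them also without it. Leaving out 1 library at a time gave 5168 to 5860 genes higher and 4021 to 4624 lower. Among genes given with values, Tead2 was the only called gene that lost its call in any alternative, and no called gene reversed. Of genes not called, Fasn had log2 differences of 0.0043 and 0.036 without RFP+ library 4 and RFP- library 4, against -0.086 with all libraries. Lef1 had -0.0093, -0.22 and -0.041 without RFP+ library 2, RFP+ library 3 and RFP- library 1, against 0.071 with all libraries, with a range of -0.22 to 0.211 over the 8 libraries left out 1 at a time. Aire, Cdh1 and Col17a1 were called in 3, 3 and 9 alternatives. The cause of these shifts was not tested. Depth limits genes of low level, such as Ccn2 at 1.13 ± 0.461 CPM in RFP+ cells (SD, n = 4).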
